A study of Danio rerio with 6 samples.

Results

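The genes described here are legumain (lgmn) and the cathepsins ctsd, ctsba, ctsla, ctss2.1, ctss2.2, ctss1, ctsc, ctsh and ctsz, which were taken by symbol from the deposited count files. Each symbol matched a single row, giving 10 of 36351 genes in all. ctsk was kept apart, because its promoter marks the cells that were sorted. The libraries are bulk RNA sequencing of cells from zebrafish skeletal tissue at 10 weeks post fertilization. All fish carried the ctsk:dsRed transgene, in which the cathepsin K promoter drives a red fluorescent protein, and dsRed-positive live cells were sorted. Fish homozygous for a clcn7 mutation (clcn7-/-) were set against their WT siblings in 3 libraries each, every library pooling 5000 cells from each of 2 fish. The labels do not describe the clcn7 allele, and its loss is not restricted to the sorted cells.

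Lysosomal proteases are made as inactive precursors, delivered to acidic compartments and trimmed there into active enzymes. Most cathepsins are papain-like cysteine proteases, cathepsin D is an aspartic protease, and legumain is a cysteine protease that cuts after asparagine and helps to process cathepsins. In mammals, osteoclasts use cathepsin K to cut bone collagen in an acid space under the cell. Macrophages and other phagocytes hold many of the remaining cathepsins. clcn7 encodes a lysosomal chloride/proton exchanger, and fish lacking it were studied for osteoclasts that do not resorb.

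The libraries held 22739782 to 26951306 read counts over genes. The label calls the sorted cells osteoclasts, and all 12 osteoclast markers were detected, but markers of other cell types were abundant as well. Levels are given as CPM, read counts relative to library size, here scaled by edgeR's TMM factors. Summed over the osteoclast markers they lay at 1432 to 2999 CPM in WT and 2429.6 to 3472 CPM in clcn7-/- libraries. For 8 keratinocyte markers the sums were 41451 to 50361 and 15917 to 26162 CPM, and for 8 fibroblast markers 39029.6 to 55279 and 25447 to 38788 CPM. Erythroid, endothelial, osteoblast and lymphocyte markers were detected too, with no marker of any list at 0 in all libraries. In such bulk libraries more cells of a type and more RNA per cell cannot be told apart.

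All 10 genes rose in clcn7-/- cells, by 1.69-fold for ctsla and by 4.59-fold to 13.4-fold for the others (edgeR's quasi-likelihood test, called where the Benjamini-Hochberg adjusted p was under 0.05). In the same test 9.91% of the 20438 tested genes were called higher and 4.83% lower. Each of the 10 had its 3 clcn7-/- libraries above its 3 WT libraries, which held for 19.4% of tested genes. The median log2 fold change was 2.90 over the 10 genes and -0.05 over all tested genes, and 9 of the 10 lay above the 95th percentile of all tested genes, 1.88. The 10 genes were chosen with earlier results of these data known, so these counts do not speak for cathepsin genes in general. Over all genes the calls split into 2025 higher and 987 lower. With upper-quartile factors they split into 1787 and 1675, and with library size alone into 2626 and 564. The median of all tested genes was then -0.16 and 0.10, and the 10 genes were called higher under each scaling. All 10 had at least 42 reads in every library, so none passed the low-count filter through 1 genotype alone.

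**Figure D1:**
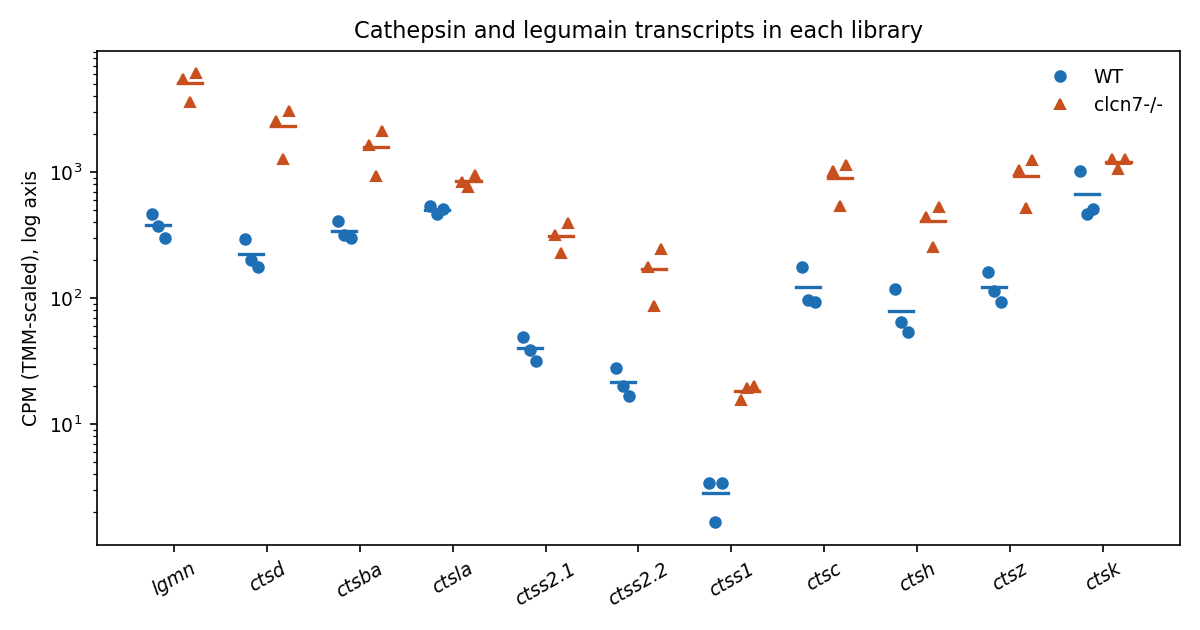
CPM (log axis) of each gene in the 3 WT libraries (circles) and the 3 clcn7-/- libraries (triangles), replicates 1 to 3 from left to right, with bars at the group means. The groups do not overlap for any gene shown, and the gap is narrow for ctsla and for ctsk.

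lgmn had the highest fold change of the group. It stood at 463, 376 and 300.1 CPM in WT replicates 1, 2 and 3 and at 5529, 3628 and 6101 CPM in clcn7-/- replicates 1, 2 and 3. The lowest mutant library was 7.84 times the highest WT library. The log2 fold change was 3.74 ± 0.27 (SE; edgeR adjusted p = 0.000603), and 112 of the 20438 tested genes had a higher one.

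ctsd, the aspartic protease of the group, came next. It measured 293, 199.8 and 178 CPM in the WT libraries and 2566, 1276 and 3073 CPM in the clcn7-/- libraries. The lowest mutant library, replicate 2, held 4.35 times the highest WT library. The log2 fold change was 3.36 ± 0.36 (edgeR adjusted p = 0.00189).

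The cathepsin B gene ctsba and the cathepsin L gene ctsla encode broad cysteine endopeptidases and changed by different amounts. ctsba stood at 407, 319 and 301 CPM in WT and at 1636, 940.1 and 2139.6 CPM in clcn7-/- libraries, and its log2 fold change was 2.2 ± 0.30 (edgeR adjusted p = 0.00407). ctsla stood at 534, 464 and 508 CPM in WT and at 836, 767 and 945 CPM in clcn7-/- libraries. Its libraries were close together within each genotype, and its log2 fold change was 0.76 ± 0.14 (edgeR adjusted p = 0.0128). The ctsla call was lost when WT replicate 2 (edgeR adjusted p = 0.0533) or WT replicate 3 (edgeR adjusted p = 0.0505) was left out, and when tested against a 1.5-fold change with edgeR's glmTreat (adjusted p = 0.292). In that last test the other 9 genes passed, against 5.17% of tested genes called higher.

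ctsla changed less than each of the other 9 genes within the libraries themselves. The log2 ratio of each of these to ctsla was higher in every clcn7-/- library than in every WT library, by 1.38 for ctsba to 2.98 for lgmn. Of all tested genes 5.99% were separated upward in this way, with 0.5 CPM added. The two-sided exact permutation p was 0.1 for each of the 9 ratios, the smallest that 3 against 3 libraries allow. ctsla was set apart in this way after its values were seen.

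Zebrafish have several cathepsin S genes, whose mammalian counterpart trims the invariant chain of MHC class II in antigen-presenting cells. ctss2.1 stood at 49.3, 38.5 and 31.6 CPM in WT and at 315, 229 and 394 CPM in clcn7-/- libraries (log2 fold change 2.97 ± 0.26, edgeR adjusted p = 0.000886). ctss2.2 stood at 27.9, 20 and 16.6 CPM in WT and at 178, 87.3 and 246 CPM in clcn7-/- libraries (2.99 ± 0.39, edgeR adjusted p = 0.0034). For both genes clcn7-/- replicate 2 was the lowest mutant library, and it was still at least 3.12 times the highest WT library. The third gene, ctss1, measured 3.42, 1.66 and 3.43 CPM in WT libraries and 15.4, 19.5 and 19.9 CPM in clcn7-/- libraries (2.68 ± 0.31, edgeR adjusted p = 0.00218). These ctss1 values rest on 42 to 87 reads per WT library and 355 to 556 per clcn7-/- library.

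In the RefSeq annotation of GRCz12tu, an assembly other than the one the authors used, ctsk, ctss2.1 and ctss2.2 follow each other on chromosome 16 with no other annotated gene between them. ctss1 is on chromosome 19. ctsd and ctsh are on chromosome 18, and lgmn, ctsc, ctsba, ctsla and ctsz are on chromosomes 13, 15, 17, 5 and 6. Set against ctsk in the same library, ctss2.1 was higher in clcn7-/- cells by 2.03 and ctss2.2 by 1.96 on the log2 scale, each with a two-sided exact permutation p = 0.1, the smallest possible. The log2 ratio of ctss2.1 to ctss2.2 was 0.90 ± 0.07 in WT and 0.96 ± 0.38 in clcn7-/- libraries (SD, n = 3), a difference of 0.07 with a two-sided exact permutation p = 0.9. How reads shared by ctss2.1 and ctss2.2 were counted was not tested. The rows for reads aligned to several places held 2.46% to 3.08% of all rows' counts.

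The 3 genes ctsc, ctsh and ctsz encode exopeptidases, which remove residues from the ends of proteins, and rose between 5.21-fold and 7.64-fold. ctsc encodes a dipeptidyl peptidase that in mammals activates granule serine proteases of leukocytes. It stood at 177, 96.3 and 93.9 CPM in WT and at 1023, 536 and 1135 CPM in clcn7-/- libraries (log2 fold change 2.87 ± 0.37, edgeR adjusted p = 0.00306). WT replicate 1 was well above the other WT libraries, and without it the log2 fold change was 3.27. The aminopeptidase gene ctsh stood at 117, 64.1 and 54.2 CPM in WT and at 443, 254 and 529 CPM in clcn7-/- libraries (2.38 ± 0.37, edgeR adjusted p = 0.00628). Its WT libraries had the widest relative spread of the group, a coefficient of variation of 43.2%, and leaving out WT replicate 1 gave 2.83. The carboxypeptidase gene ctsz stood at 161, 113 and 92.6 CPM in WT and at 1033, 516 and 1258 CPM in clcn7-/- libraries (2.93 ± 0.36, edgeR adjusted p = 0.0027).

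In the authors' deposited table the adjusted p of these 10 genes lay between 2.81e-47 for lgmn and 4.55e-06 for ctsla, and 12.3% of its genes with an adjusted p were called higher. The log2 fold changes in the authors' deposited table differed from those given here by at most 0.01. The adjusted p-values there are far lower than those of edgeR's quasi-likelihood test on the same libraries.

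**Figure D2:**
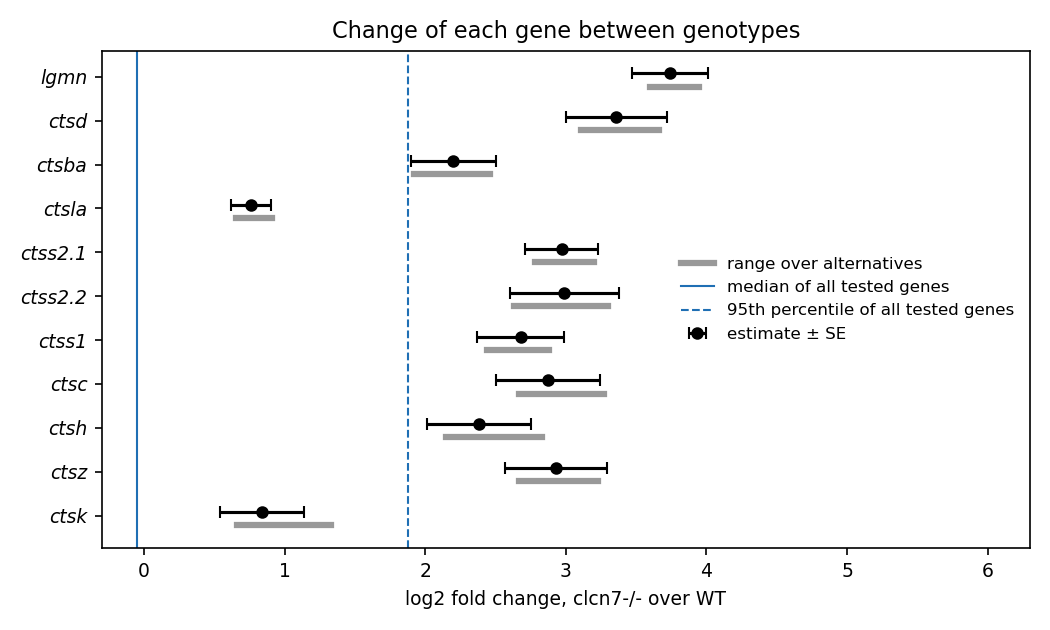
Log2 fold change of each gene, clcn7-/- over WT, with its SE (black) and the range of estimates over 15 alternative analyses (grey). The solid line is the median of all tested genes (-0.05) and the dashed line their 95th percentile (1.88). ctsla and ctsk lie below the dashed line and the other 9 genes above it.

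Summed over the 10 genes, CPM went from 2235, 1692 and 1579.8 in the WT libraries to 13575, 8254 and 15840.3 in the clcn7-/- libraries. As a share of all gene counts this was 0.148% to 0.215% in WT and 0.876% to 1.72% in clcn7-/- libraries. The make-up of this sum is described here without a test. Of the CPM summed over the 10 genes and ctsk, not adjusted for transcript length, lgmn held 14.2%, 17.4% and 14.3% in WT and 37.3%, 39% and 35.7% in clcn7-/- libraries. The share of ctsd went from 8.93 ± 0.379% to 16.3 ± 2.29% (SD, n = 3), while that of ctsla went from 20.7 ± 4.01% to 6.46 ± 1.54% and that of ctsk from 25.8 ± 5.08% to 9.08 ± 2.03%. ctsh kept a nearly constant share, 3.05 ± 0.51% in WT and 2.94 ± 0.187% in clcn7-/- libraries. Transcript lengths were not used here, so levels are not ranked between genes.

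Within each genotype the same libraries tended to be high or low. WT replicate 1 was the highest WT library for 9 of the 10 genes and clcn7-/- replicate 2 the lowest mutant library for 9 of the 10, ctss1 being the exception in both counts. ctss1 was highest in WT replicate 3, level with replicate 1, and lowest among mutants in replicate 1. WT replicate 1 also held the most ctsk, at 1024 CPM against 464 and 512 CPM. Spread within the clcn7-/- group was widest for ctss2.2, with a coefficient of variation of 46.7%, and narrowest for ctsla, at 10.5%.

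The summed CPM of the macrophage markers was likewise highest in WT replicate 1 among WT libraries and lowest in replicate 2 among mutants. Of 14 macrophage markers 13 rose, mpeg1.2 did not pass, and none was at 0. This sum was 468, 299 and 245 in WT replicates 1 to 3 and 2699, 1421 and 3073 in clcn7-/- replicates 1 to 3. All 10 neutrophil markers rose too, from 619 to 722 CPM in sum in WT to 2268 to 2661 CPM in clcn7-/- libraries, with replicate 2 the highest of the mutants. Of 8 erythroid markers 7 rose, and their summed CPM lay at 314 to 569 in WT and 973 to 2594 in clcn7-/- libraries. Of 8 endothelial markers 4 rose, with sums of 119 to 173 and 439 to 1361 CPM. Those that rose were stab1, stab2, lyve1b and mrc1a, while kdrl, cdh5, fli1a and pecam1 did not pass. Of the other lists, 2 of 8 lymphocyte markers rose, while 5 of 8 keratinocyte, 3 of 8 osteoblast and 1 of 8 fibroblast markers fell. The osteoclast markers had 1 of 12 rise and 1 fall. Over all tested genes 9.91% were called higher and 4.83% lower. The part of these cell types in the change of the cathepsin genes was not tested.

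**Figure D3:**
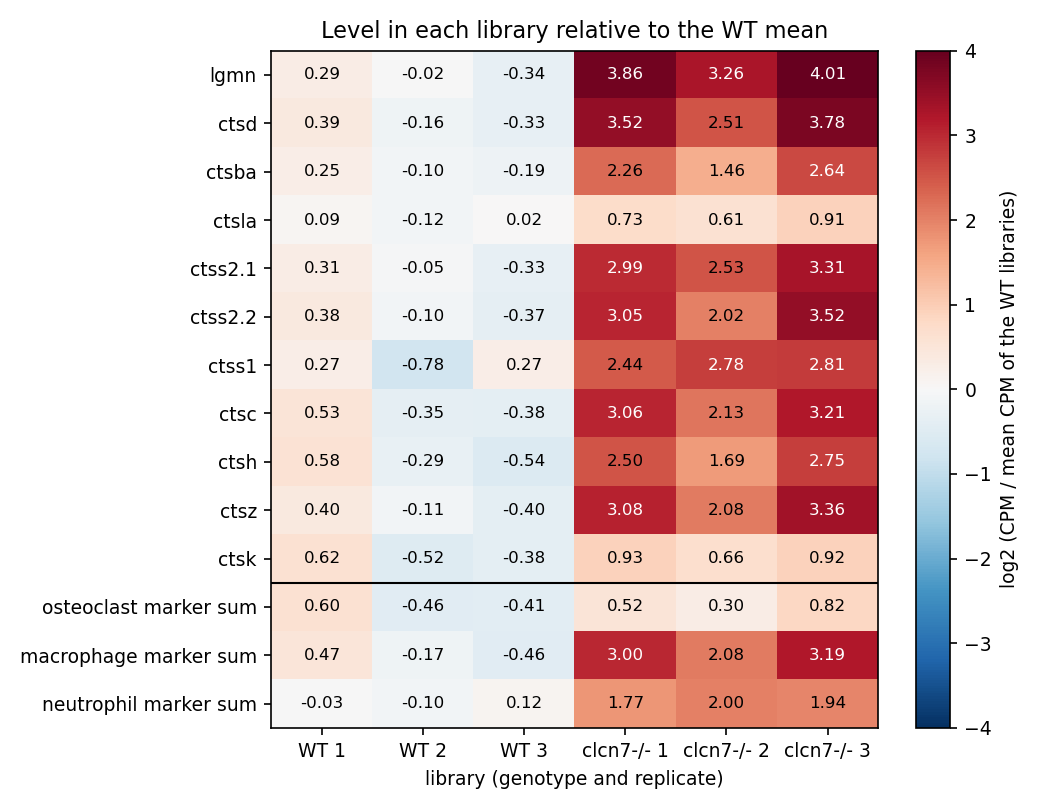
Log2 ratio of the CPM in each library to the mean of the 3 WT libraries, for each gene and for the summed CPM of osteoclast, macrophage and neutrophil markers. In clcn7-/- replicates 1, 2 and 3 the macrophage sum stood at 3, 2.08 and 3.19 and ctsz at 3.08, 2.08 and 3.36, while lgmn stood at 3.86, 3.26 and 4.01, ctss1 at 2.44, 2.78 and 2.81 and ctsla at 0.73, 0.61 and 0.91. The macrophage sum includes mpeg1.2, which did not rise (log2 fold change -0.17), and would stand higher in these libraries without it.

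ctsk itself did not pass the edgeR test (log2 fold change 0.84 ± 0.30, edgeR adjusted p = 0.102), although its clcn7-/- libraries all lay above its WT libraries. Without WT replicate 1 the change was 1.33 (edgeR adjusted p = 0.00515), and over the 15 alternatives the adjusted p lay between 0.00515 and 0.457. It passed with DESeq2 (adjusted p = 0.0289) and limma-voom (adjusted p = 0.024), and in the authors' deposited table its adjusted p was 0.0313 at a log2 fold change of 0.85. Set against ctsk in the same library, 9 of the 10 genes were higher in every clcn7-/- library than in every WT library. For all tested genes, with 0.5 CPM added, that share was 4.21%. The differences in log2 ratio were 2.80 for lgmn, 2.37 for ctsd and 1.2 to 2.03 for the next 7, each with a two-sided exact permutation p = 0.1, the smallest possible. ctsla was the exception, at -0.32 ± 0.54 in WT and -0.49 ± 0.09 in clcn7-/- libraries (SD, n = 3; exact permutation p = 0.6). Against the sum of the osteoclast markers, which includes ctsk itself, the count was 9 as well, where 6.02% of tested genes were separated upward. Against acp5b, a tartrate-resistant acid phosphatase gene with only 3 to 118 reads per library, it was 0, taken without any CPM added. The exact permutation p of these ratios lay between 0.3 and 0.9. With 0.5 CPM added, 1.64% of tested genes were separated upward. acp5b stood at 0.13 to 4.22 CPM, so the added 0.5 CPM alters its ratios. The count of 0 and this share therefore cannot be compared. The related gene acp5a held 9578 to 35552 reads per library and did not pass (0.42 ± 0.47, edgeR adjusted p = 0.598). Ratios to acp5a were not taken.

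Against the summed macrophage markers, a comparison added after the data were seen, 0.318% of tested genes were higher in every clcn7-/- library and 95.1% lower. Of this sum mpeg1.2, which did not rise, held 101, 72.5 and 85.1 CPM in WT and 93.1, 72.3 and 65.3 CPM in clcn7-/- libraries. It was a larger part of the WT sums, so each difference in ratio to this sum would be lower without it. Ratios without mpeg1.2 were not taken, and the separation of ctsd cannot be taken to hold without it. lgmn was higher in every clcn7-/- library, with log2 ratios of -0.02, 0.33 and 0.29 in WT and 1.03, 1.35 and 0.99 in clcn7-/- libraries, a difference of 0.92. ctsd was higher as well, with -0.67, -0.58 and -0.46 in WT and -0.07, -0.16 and 0 in clcn7-/- libraries, a difference of 0.50. For both the two-sided exact permutation p was 0.1, the smallest possible. Differences for ctsc, ctsz, ctss2.2, ctss2.1 and ctss1 lay between -0.06 and 0.15 (exact permutation p from 0.4 to 1). For ctss1 the ratios spread widely, -6.92 ± 0.69 in WT and -6.97 ± 0.68 in clcn7-/- libraries (SD, n = 3), so its small difference says little. With mpeg1.2 in the sum, the log2 ratio of ctsc stood at -1.47 ± 0.14 in WT and -1.41 ± 0.02 in clcn7-/- libraries (SD, n = 3). Whether ctsc and the other 4 genes keep to the markers that rose was not tested. ctsla, ctsba and ctsh were lower in every clcn7-/- library than in every WT library, with differences of -2.05, -0.68 and -0.41 on the log2 scale, each with an exact permutation p = 0.1. Some macrophage markers are also made by osteoclasts, such as csf1ra, so this sum is not a count of macrophages. Against the summed neutrophil markers, also added after the data were seen, lgmn, ctsd, ctss2.1 and ctss1 were higher in every clcn7-/- library and ctsla was lower in each. Of all tested genes 0.817% were higher in every clcn7-/- library by that measure and 90.6% lower. Most of each WT neutrophil sum came from srgn (261, 356 and 362 CPM) and itgb2 (183, 102 and 136 CPM). They rose by 1.72-fold and 2.84-fold, less than the other neutrophil markers. Ratios without srgn and itgb2 were not taken, so the upward separations cannot be taken to hold without them.

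Among 11222 named genes with a mean of at least 5 CPM, cx32.2 and card9 were among the 3 whose centred log2(CPM + 1) profiles over the 6 libraries were closest to that of lgmn. Their root mean square differences from lgmn were 0.133 and 0.151 on the log2 scale. cx32.2 is a connexin gene and card9 encodes an adaptor of innate immune signalling. cx32.2 measured 26.6, 21.1 and 12.6 CPM in WT libraries and 311, 198 and 326 CPM in clcn7-/- libraries, with the same order of libraries as lgmn within each genotype. card9 measured 1.5, 1.18 and 0.652 CPM in WT libraries and 35.8, 24.6 and 32.6 CPM in clcn7-/- libraries. Its log2 fold change was 4.79, against 3.74 for lgmn. The 1 CPM added for the profiles narrows a change that starts at such low levels. Closest to ctsd were the integrin gene itgae.2 (0.109) and the solute carrier genes slc7a7 (0.128) and slc43a3b (0.134). slc7a7 is also in the macrophage list. These likenesses describe 6 libraries of 2 genotypes.

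There were 10 further cathepsin symbols, ctsk among them. Of these 7 had enough reads to be tested, and the median log2 fold change of the 7 was 0.36. That median is the value of ctsll (0.36 ± 1.55), which held only 0 to 120 reads per library. With limma-voom the ctsll value was -1.48. ctslb, also among the 7, held 1 to 47 reads per library. Of the 7, 2 rose, where 9.91% of all tested genes were called higher. They were ctsa, which encodes a serine carboxypeptidase that protects other lysosomal enzymes, from 73.6 ± 15.6 to 249 ± 92.7 CPM (SD, n = 3; 1.76 ± 0.30, edgeR adjusted p = 0.00898), and ctsl.1, from 5.26 ± 3.74 to 24.1 ± 12.6 CPM (2.19 ± 0.59, edgeR adjusted p = 0.0445). The ctsl.1 call was lost without WT replicate 2 or 3 or clcn7-/- replicate 1 or 3, where 1 gene of the list rose. ctsf and ctso, which encode further lysosomal cysteine proteases, had log2 fold changes of 0.27 ± 0.13 and 0.13 ± 0.25. Whether these genes differ from the 10 as a group was not tested.

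Cystatins are inhibitors of papain-like cathepsins. Of 5 genes 4 rose, against 9.91% of all tested genes, and the median log2 fold change was 1.32. cst14b.1 went from 240.4 ± 81.3 to 716 ± 199.5 CPM (1.57 ± 0.30, edgeR adjusted p = 0.0128), cst14b.2 from 5.4 ± 2.67 to 20.2 ± 0.853 CPM (1.90 ± 0.37, edgeR adjusted p = 0.014) and cst14a.1 from 2.81 ± 0.585 to 7.04 ± 1.11 CPM (1.32 ± 0.29, edgeR adjusted p = 0.0215). When WT replicate 2 or clcn7-/- replicate 1 was left out 2 of them rose, and when WT replicate 3 was left out 1 did. The secreted inhibitor gene cst3, the cystatin C gene, measured 672 ± 51.6 CPM in WT libraries and 509 ± 61.6 CPM in clcn7-/- libraries and did not pass (-0.40 ± 0.15, edgeR adjusted p = 0.11).

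Other lysosomal proteases and cofactors all rose, 10 of 10, against 9.91% of all tested genes, and their median log2 fold change was 1.51. The list holds peptidases, a thioesterase, the saposin precursor gene psap and the thiol reductase gene ifi30. The smallest p-values belonged to prcp, a carboxypeptidase gene (1.85 ± 0.22, edgeR adjusted p = 0.00244), the tripeptidyl peptidase gene tpp1 (2.23 ± 0.28, edgeR adjusted p = 0.00293) and the dipeptidyl peptidase gene dpp7 (1.25 ± 0.20, edgeR adjusted p = 0.00693). When WT replicate 2 or 3 or clcn7-/- replicate 1 or 3 was left out 7 of the 10 rose, and 8 did with upper-quartile factors or without the low-count filter. The call of pla2g15, a phospholipase gene, was lost whichever library was left out.

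Enzymes reach the lysosome through mannose 6-phosphate tags and their receptors, or through sortilin. Of 11 measured sorting genes 5 rose and 1 fell, against 9.91% and 4.83% of all tested genes. Their median log2 fold change was 1.01. The sortilin genes went apart. sort1b rose from 20.5 ± 2.58 to 84.7 ± 23 CPM (SD, n = 3; 2.04 ± 0.23, edgeR adjusted p = 0.00195), and sort1a fell from 157 ± 16.9 to 97.4 ± 15.4 CPM (-0.69 ± 0.16, edgeR adjusted p = 0.0305). The sort1a call was lost without WT replicate 2 or 3, without clcn7-/- replicate 1 or 3, and with library size alone (edgeR adjusted p = 0.0578). gnptab, whose product adds the tag, rose by 1.28 ± 0.17 (edgeR adjusted p = 0.00351) and the receptor gene m6pr by 1.05 ± 0.15 (edgeR adjusted p = 0.0043) on the log2 scale. Without WT replicate 3, 3 genes of the list rose.

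The MHC class II path, which uses cathepsin S and legumain in mammals, had 6 measured genes, and their median log2 fold change was 0.88. Of these 1 rose, against 9.91% of all tested genes. It was the invariant chain gene cd74b, from 276 ± 73.6 to 651 ± 268 CPM (1.24 ± 0.33, edgeR adjusted p = 0.0458). That call was lost with upper-quartile factors (edgeR adjusted p = 0.0532) and without WT replicate 2 or 3 or clcn7-/- replicate 1 or 3. Without clcn7-/- replicate 2, 3 genes rose. MiT/TFE transcription factors drive lysosomal genes in mammals. Of 8 measured factors and folliculin partners 5 rose, against 9.91% of all tested genes, and the median log2 fold change was 1.22. Over the alternative analyses 4 to 7 of them rose. The 3 with the smallest p were tfec, mitfb and tfeb, of which tfeb went from 5.25 ± 1.72 to 40 ± 17.5 CPM (2.93 ± 0.38, edgeR adjusted p = 0.00322).

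**Figure D4:**
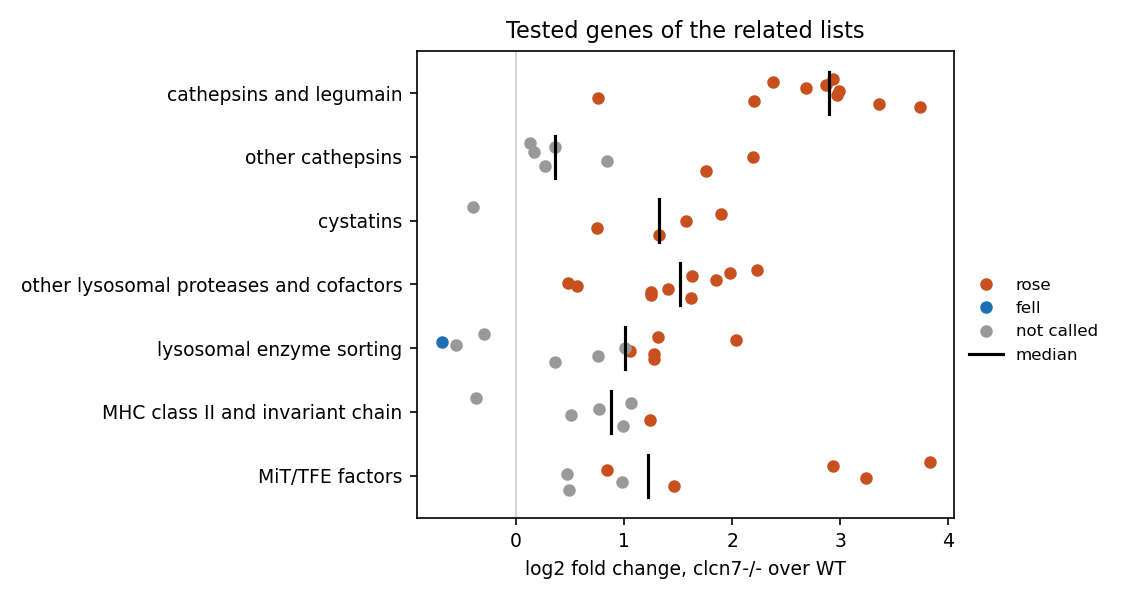
Log2 fold change (clcn7-/- over WT) of every tested gene of the 10 cathepsin and legumain genes and of 6 related lists. Orange points rose, blue points fell and grey points did not pass the edgeR test. Black bars are medians, which run from 2.90 for the 10 genes to 0.36 for the other cathepsins. The latter is the value of ctsll, a gene with few reads.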

How the data were processed

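Each deposited file holds the whole-number read count of every gene in a library. The submitters' processing notes name GRCz11, STAR 2.7.0a, Trim Galore, DESeq2 and HTSeq 0.9.1. Annotation and strand setting: not given in the sources used here. Rows naming no gene, 20.1% to 23% of counts, were left out. The authors' deposited table gives, per gene, a log2 value in each library, an adjusted p-value and a log2 fold change, made with DESeq2 according to the submitters' notes.

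Low counts were removed by filterByExpr (minimum count 10, minimum total 15), libraries scaled with TMM and tested with edgeR 4.0.16 (glmQLFTest, genotype only; R 4.3.3). p-values were adjusted over 20438 tested genes. SE is the log2 fold change divided by the square root of F. The steps were also run on simulated counts in which genes varied independently, which does not test them on libraries of mixed cells. Alternatives were RLE, upper-quartile and no scaling factors, no and a stricter filter (1 CPM in 3 libraries, mean count 10), DESeq2 1.42.0, limma-voom (limma 3.58.1), a replicate block, glmTreat and leaving out each library.

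The 10 genes and the lists were chosen with earlier results of these data known. The text names the 10 genes, ctsk, up to 3 risen and 3 fallen genes with the smallest p per related list, and the 3 nearest profiles to lgmn and ctsd. Of the genes so named, 1 is not reported here. Others (mpeg1.2, csf1ra, srgn, itgb2, acp5a, acp5b, ctsf, ctso, ctsll, ctslb, cst3, psap, ifi30, ppt1, pla2g15 and the endothelial markers) were named after their values were seen. Replicates are pools of fish that the labels call biological.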

Additional observations from a re-analysis of the deposited data

How the results depend on the processing

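All 10 genes were called higher in 12 of the 15 alternatives and 9 of them in the other 3, where ctsla missed. Calls over all genes numbered 4665 with DESeq2, 1921 of them lower, and 1191 with glmTreat against 1.5-fold, 1057 higher and 134 lower. Lower genes were 1675 (upper-quartile factors) and 564 (library size alone). Leaving out 1 library gave 1356 to 2527 calls, 1157 to 1828 higher and 199 to 737 lower. It gave 1 to 3 risen genes for the other cathepsins, 1 to 4 for cystatins, 7 to 9 for other lysosomal genes, 3 to 6 for sorting genes with 0 to 1 fallen, and 0 to 3 for MHC class II genes. With glmTreat 1 other cathepsin, 2 cystatins and 3 sorting genes rose, 0 sorting genes fell (0 at an unadjusted p under 0.05) and 0 MHC class II genes rose (1 unadjusted). In edgeR 0 MHC class II genes rose with upper-quartile factors (2 unadjusted) and 0 sorting genes fell with library size alone (1 unadjusted), against 2 and 1 with DESeq2, and 1 cystatin fell with limma-voom. The causes were not tested. The ratios to ctsk separated the genotypes upward for 9 genes, and those to acp5b, macrophage and neutrophil sums for 0, 2 and 4, with 0, 3 and 1 separated downward. These counts were taken without the 0.5 CPM added for all tested genes, which matters for acp5b at its low level. Those for the macrophage and neutrophil sums also depend on which markers are in each sum.

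Same-numbered libraries share only a number. Their deviations from the group means correlated at 0.25, 0.05 and 0.16 over genes, each library doing so best with its own number. For replicate 2 the margin was small, 0.05 against 0.03. Deviations from a mean of 3 libraries are not independent, and pairing was not tested. With the replicate block 3007 genes were called, the 10 genes among them, ctsk passed (edgeR adjusted p = 0.0454) and ppt1 of the lysosomal list did not. ctss1 rests on 42 to 556 reads per library and acp5b on 3 to 118.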

Other observations

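Of the remaining cathepsin symbols, 3 had too few reads to be tested, and they were named after their values were seen. cts12 held 74 reads in WT replicate 2, 3 reads in WT replicate 3, 3 reads in clcn7-/- replicate 2 and 0 in the other libraries. ctsbb held 2 to 9 reads in the WT libraries and 1 to 3 in the clcn7-/- libraries. nots held at most 4 reads in any library.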
